A study of Caenorhabditis elegans with 6 samples.

Results

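The miR-58 family, also called the bantam family, was followed across the 6 arrays of a spaceflight experiment on the nematode Caenorhabditis elegans. Members were chosen by name: the probes for cel-miR-58-3p, cel-miR-80-3p, cel-miR-81-3p and cel-miR-82-3p, called without the species prefix from here on, which are 4 of the 154 worm miRNA probes on the array. Their genes are mir-58.1, mir-80, mir-81 and mir-82. In the WBcel235 gene table of RefSeq, mir-81 and mir-82 lie next to each other among the miRNA genes of chromosome X, while mir-58.1 lies on chromosome IV and mir-80 on chromosome III.

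A miRNA is a short RNA that guides Argonaute proteins to messenger RNAs by pairing through its seed, the bases near its 5′ end, and lowers their translation or stability. The members of this family share a seed with the Drosophila miRNA bantam, are among the most abundant miRNAs of the worm and act redundantly: worms that lack all of the founding members are small and lay eggs poorly. Known targets include components of the TGF-beta pathways that set body size and control entry into the dauer stage, and miR-80 has been tied to the response to food shortage. miR-81-3p and miR-82-3p are nearly identical in sequence, so their probes may share RNA, and the split of signal between them is uncertain.

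The arrays used 1 colour, the dye Hy3, and each held the RNA of 1 sample, from 1 of 2 strains under 1 of 3 exposures. One strain was N2, the standard wild type, and the other a mutant whose genotype label is ced-1(n1995); the CED-1 protein is a receptor by which cells recognise and engulf dying neighbours. The names given for the mutant strain disagree, LS292 in titles and source names and MT4930 in the strain label, so it is called the mutant here. Worms flew either in a static position (1.92 mGy of radiation, gravity peaks up to 0.01 g) or on a 1 g centrifuge (2.27 mGy), and the ground group was held in a static position 2 days behind the flight. All 6 samples were dauer larvae, the arrested and stress-resistant larval stage. About 100000 worms were loaded for each and kept for 16.5 days at 23 °C, collection followed 7 h after that period, and 1 µg of total RNA was labelled. Per the design text there were no repeats of samples, so the number of arrays limits every value below, and the spots of a probe measure technical error only.

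The strains differed over the whole array. Of the 154 worm probes, 36 to 90 exceeded the 95th percentile of the spots named spike control on a mutant array, and 27 to 31 did so on an N2 array; this percentile is called the control limit below. The control limit itself was 75.25 to 150 on the mutant arrays and 13.25 to 20 on the N2 arrays, and the spots named Hy3, which are not worm miRNA probes, were 4.63-fold brighter on the mutant arrays by the ratio of their means. The 95th percentile of the local background was 79 to 237 on the mutant arrays and 369 to 934 on the N2 arrays. The strains stood in separate raw tables with different probe naming, and the effects of strain and of table cannot be told apart. None of the miRNAs checked as stage markers marks dauer larvae alone. Of miR-71-5p and miR-34-5p, both known from dauer and starved larvae, both exceeded the control limit on the mutant flight arrays, 1 of 2 did so on the mutant ground array, and both read between -8.5 and 6 on the N2 arrays. The muscle miRNA miR-1 read 140 to 474 on the mutant arrays and -49 to 6 on the N2 arrays. The summed intensity of 4 neuronal miRNAs was 327 to 517 in the mutant and -2 to 169 in N2, with 0 to 2 and 1 to 2 of them above the control limit. For the 8 miR-35 family miRNAs of embryo and germ line it was 655 to 2094 and -288 to 7, with 2 to 6 and 1 of them above. For 4 larval timing miRNAs it was 2233.5 to 11713.5 and 195.5 to 566, with 3 to 4 and 2 of them above. The part of these differences in the family's values was not tested.

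Intensities are given first as deposited, background-subtracted and as the median of the 4 spots of a probe. Before comparison each array was scaled by the same 8 worm probes, none of them a family member. Values under 50 were set to a floor of 50. The mutant's scaling factors were 1.49 for static flight, 0.33 for the centrifuge and 0.93 for the ground. Not all 8 probes were steady. In the limma fit described below, miR-1823 (-2.67, limma adjusted p = 1.14e-05) and miR-84-5p (1.95, 0.00113) were called between the strains. miR-257 (2.40, 0.0393) was the 1 miRNA called for static flight against ground. Scaling without these probes was not tested. Levels of different probes are not compared, because each probe has its own response.

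All 4 members exceeded the control limit on every mutant array, with 46 of their 48 spots above it, but their ground spots scattered widely. miR-58-3p, the founding member, read 679 on the static flight array, 1713 on the centrifuge array and 155 on the ground array. Its scaled intensities were 1012, 564 and 144 in the same order. It was thus highest on the static flight array and lowest on the ground, where only 2 of its 4 spots exceeded the control limit. The ground spots read 101, 142, 168 and 836, and the brightest of them had a local background of 664.

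miR-80-3p, whose loss in the worm gives features of dietary restriction, read 434.5, 1438 and 602.5 on the static, centrifuge and ground arrays of the mutant. After scaling these became 648, 473 and 558, which lie close together and in no order by exposure. Its ground value is the least certain of the family: the spots there read 278, 298, 907 and 6902.

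miR-81-3p read 2568, 9106.5 and 18657.5 on the static, centrifuge and ground arrays. Scaled, it stood at 3827, 2999 and 17294, so the ground array was far above both flights. Its ground spots, at 11504 to 22836, all lay above every flight spot.

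miR-82-3p, encoded beside miR-81, read 1402, 4717.5 and 3822.5. Scaled, it stood at 2090, 1553 and 3543, again highest on the ground, but the ground spots ran from 1351 to 17362 and overlapped those of both flights. The SD of the 4 spots on the log2 scale was 0.42 for miR-81-3p on the ground array and 1.36, 2.16 and 1.52 for miR-58-3p, miR-80-3p and miR-82-3p. On the mutant flight arrays it did not exceed 0.22 for any member.

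**Figure D1:**
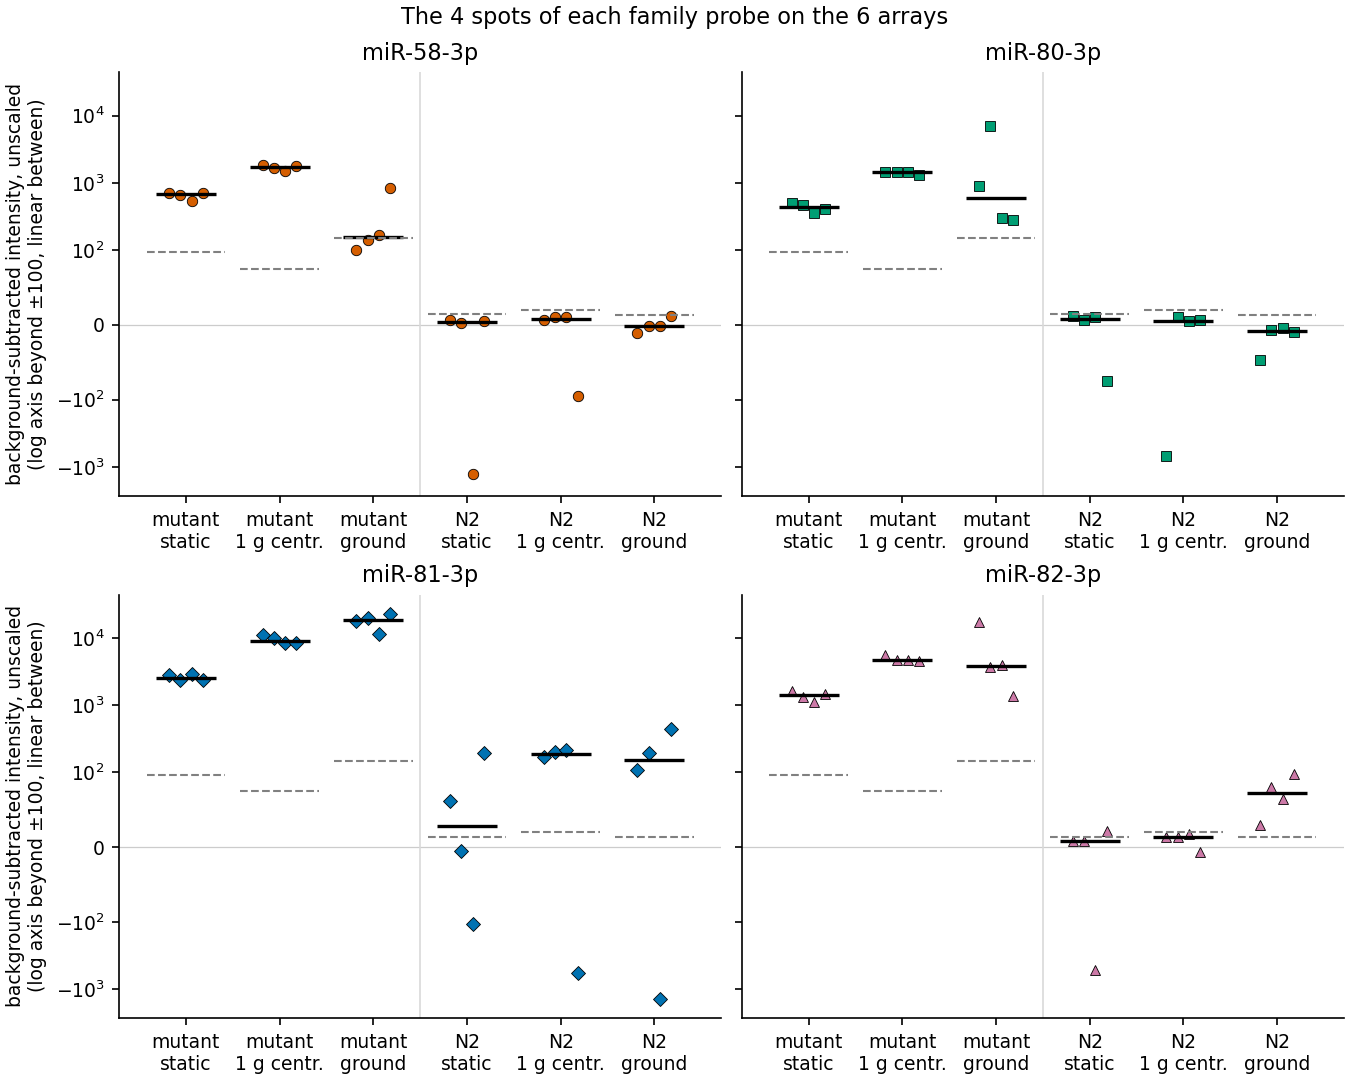
Background-subtracted intensity of the single spots of each family member on the 6 arrays, with the median of the spots of each array, in arbitrary units. The spots of 3 members spread widely on the mutant ground array, and the N2 spots lie near the control limit.

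The first question was what flight did to the family in the mutant. With 1 array against 1 there is no test of samples, and differences are given on the log2 scale of scaled intensity with a technical SE from the spots. In static flight against ground, 1 of 4 members was at least 2-fold higher, beside 24.1% of the 145 miRNAs compared, and 1 of 4 was at least 2-fold lower, beside 6.9%. miR-58-3p was higher in static flight by 2.82 (technical SE 0.68), the rank 3 of the 145 differences from the highest. miR-81-3p differed by -2.18 (technical SE 0.23), rank 143. The scaled spots of the static and ground arrays did not overlap for these 2 members, though for miR-58-3p the lowest static spot (799) was close to the highest ground spot (775) and the unscaled spots overlapped. miR-80-3p at 0.21 (technical SE 1.09) and miR-82-3p at -0.76 (technical SE 0.77) differed by less than their spot error. The median over all 145 miRNAs was 0.52, so miR-81-3p and miR-82-3p lay on the other side of 0 from the bulk of the array.

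In centrifuge flight against ground, 1 of 4 members was at least 2-fold higher, beside 9.76% of 123 miRNAs, and 2 of 4 were lower, beside 20.3%. miR-58-3p was again higher, by 1.97 (technical SE 0.68; rank 3 of 123), although its scaled ground spots overlapped the centrifuge spots because of the single bright one. miR-81-3p differed by -2.53 (technical SE 0.24; rank 122), with no overlap of spots. The difference was -1.19 (technical SE 0.76) for miR-82-3p and -0.24 (technical SE 1.08) for miR-80-3p, and both had overlapping spots. The median of all 123 was -0.40. This median, the shares and the ranks mix measured and floored values, with 103 worm probes at the floor on the centrifuge array and 31 on the ground array. Both flight arrays were set against the same ground array, so the likeness of the 2 comparisons is not a repeat. Without scaling, the miR-82-3p difference became 0.30, while miR-58-3p stayed higher, at 3.47, and miR-81-3p lower, at -1.03.

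In static against centrifuge flight, which differed in gravity and also in dose, 0 of 4 members reached 2-fold in the mutant, beside 34.5% of 145 miRNAs higher and 0.69% lower. The differences were 0.84 (technical SE 0.11) for miR-58-3p, 0.45 (technical SE 0.12) for miR-80-3p, 0.35 (technical SE 0.13) for miR-81-3p and 0.43 (technical SE 0.13) for miR-82-3p. The median over all miRNAs was 0.77: miR-58-3p lay near it, at rank 65 of 145, and the other members lay below it, at ranks 104 to 111. The median, the shares and the ranks mix measured and floored values, with 103 worm probes at the floor on the centrifuge array and 9 on the static array. All 4 members were measured on both. The direction of the members' differences rests on the scaling: unscaled, they ran from -1.83 to -1.34, all toward the centrifuge array, and on a 75th percentile scale they ran from -0.47 to 0.02.

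**Figure D2:**
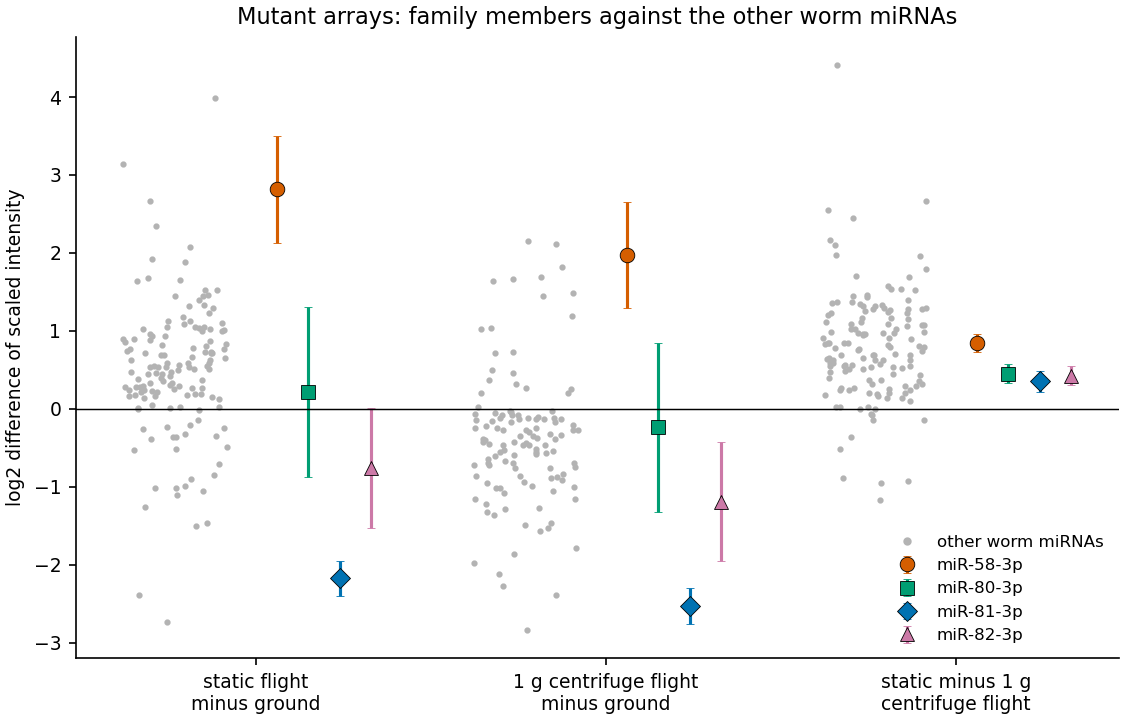
Log2 differences between the mutant arrays for every miRNA compared, with the 4 family members marked and their technical SE from the spots. miR-58-3p and miR-81-3p lie near opposite ends of both comparisons with the ground array, and the members differ little between the flights.

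Because the scaling cancels when 1 member's change is set against another's on the same arrays, the family can also be compared within itself. From ground to static flight, miR-58-3p changed 4.99 more on the log2 scale than miR-81-3p. The difference was positive in each of the 4 sections of the slide, which hold 1 spot of each probe, at 5.50, 5.25, 3.64 and 3.04. From ground to centrifuge flight it was 4.50, with 4.88, 4.52, 3.65 and 2.54 in the sections. With the mean of the spots in place of the median it was 3.85 and 3.38. miR-58-3p and miR-81-3p were the only pair that kept 1 sign in every section in both comparisons with the ground; each of the other 5 pairs changed sign in at least 1.

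Between the flights the same pair differed by 0.49. Changes at least 2-fold apart were found for 5 of the 6 family pairs in static flight against ground, beside 63.2% of the 378 pairs of 28 miRNAs above the control limit on all 3 mutant arrays. For centrifuge flight against ground it was 5 of 6 pairs, beside 60.1%, and between the flights 0 of 6, beside 32.5%. The SD of the 4 members' changes was 2.10, 1.89 and 0.22 in these comparisons, and over the 28 miRNAs it was 1.43, 1.32 and 0.83. The 28 miRNAs include the 4 members, so the family is part of the set it stands beside, in the pairs and in the SD. The members spread at least as widely as this set against the ground array and lay closer together between the flight arrays. This difference in spread was not tested, and the ground array is also the one on which their spots scattered most.

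**Figure D3:**
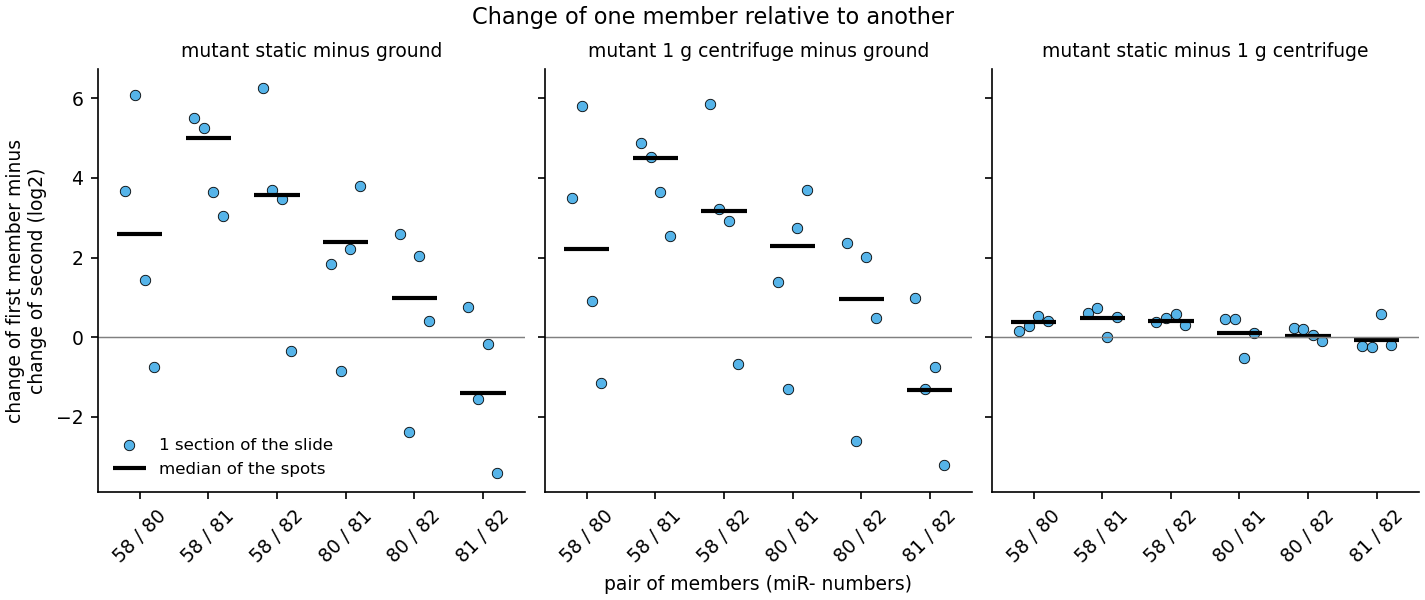
Change of the first member relative to the second on the log2 scale for the 6 pairs of members on the mutant arrays, from the median of the spots and in each section of the slide. Only miR-58-3p against miR-81-3p stays on 1 side of 0 in all sections of both comparisons with the ground array, at 2.54 to 5.50.

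In wild-type N2 the family was near the limit of measurement, with 13 of 48 spots above the control limit. miR-58-3p read 3.5, 8 and -1.5 on the static, centrifuge and ground arrays, and miR-80-3p read 8, 5.5 and -8. Neither rose above the floor on any of the 3 N2 arrays, so no difference between exposures can be given for them. Of the 48 N2 spots of the family 17 were below 0; 8 were under -50, of which 7 had a local background over 200.

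miR-81-3p was the 1 member above the control limit on every N2 array, at 28.5 in static flight, 185 on the centrifuge and 151.5 on the ground. Scaled, these were 72.3, 509 and 332. On each array its spots spread on both sides of 0, from -1403 to 440 on the ground. Its differences were -2.20 (technical SE 1.20) for static flight against ground, 0.62 (technical SE 1.25) for centrifuge flight against ground and -2.82 (technical SE 1.17) for static against centrifuge flight. Computed from spot means in place of medians, the ground and centrifuge values fell to the floor, and static flight was higher than either by at least 0.59.

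In N2, miR-82-3p read 8 in static flight, 14 on the centrifuge and 72 on the ground, and only the ground value was above the floor after scaling, at 158. All 4 of its ground spots exceeded the control limit, and they did not overlap the spots of either flight. It was at least 3.16-fold lower in static and in centrifuge flight than on the ground. The size depends on the processing. Under normexp background correction, which also added an offset of 50 to every spot before scaling, the log2 differences were -0.05 and -0.20. Unscaled they were at least -0.53 in size, and with spot means at least -3.09. With the main scaling, both of the 2 members above the floor on at least 1 array were at least 2-fold lower in N2 static flight than on the ground, beside 25% of 32 miRNAs so compared, and 1 of 2 in centrifuge flight, beside 11.1% of 36. In static against centrifuge flight miR-81-3p was the 1 member compared, and it was lower, beside 20.6% of 34. No member compared was at least 2-fold higher in these comparisons, beside 18.8%, 38.9% and 2.94%.

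The strains were also fitted together in an additive limma model of strain and exposure over the 125 miRNAs that reached 50 on at least 2 arrays, in which the strains stand in for replicates of an exposure. For static flight against ground, 0 of 4 members passed an adjusted p of 0.05, beside 0.8% of miRNAs higher and 0% lower, and 9 of 125 had an unadjusted p under 0.05. miR-81-3p came nearest, at -2.19 (SE 0.64, limma adjusted p = 0.0685). It passed when the mutant static array was left out, which leaves the dim N2 static array alone for that exposure and assumes that it varies like the others, and with the authors' normalized values. miR-58-3p was at 1.41 (limma adjusted p = 0.564), miR-80-3p at 0.11 (0.970) and miR-82-3p at -1.21 (0.651).

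For centrifuge flight against ground, limma called 0 of 125 miRNAs, with 5 at an unadjusted p under 0.05. The members stood at 0.99 for miR-58-3p, -0.12 for miR-80-3p, -0.96 for miR-81-3p and -1.42 for miR-82-3p, each with a limma adjusted p of 0.977. For static against centrifuge flight it again called 0 of 125, with 4 at an unadjusted p under 0.05, and the members lay between -1.23 for miR-81-3p and 0.42 for miR-58-3p (limma adjusted p of 0.947 to 0.960). The fit without moderation of variances also called 0 in each of the 3 comparisons. In these fits the N2 floor values of miR-58-3p and miR-80-3p count as measured values of no change.

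Between the strains, every member was higher on the mutant array under every exposure with the main scaling; under normexp background correction the ground difference of miR-58-3p turned to -0.86. On the static flight arrays miR-81-3p was 52.9-fold higher in the mutant than in N2, and miR-58-3p, miR-80-3p and miR-82-3p, at the floor in N2, were at least 20.2-fold, 13.0-fold and 41.8-fold higher. On the centrifuge arrays miR-81-3p was 5.89-fold higher, and the others at least 11.3-fold, 9.47-fold and 31.1-fold. On the ground arrays miR-81-3p was 52.0-fold and miR-82-3p 22.4-fold higher, miR-58-3p at least 2.87-fold and miR-80-3p at least 11.2-fold. On a 75th percentile scale, which on the N2 arrays rests on values under the control limit, the ground difference was 2.14 on the log2 scale for miR-81-3p. For miR-82-3p it was 0.93, under 2-fold. With the main scaling 4 of 4 members were at least 2-fold higher under each exposure, beside 50.3% of 145 miRNAs in static flight, 49.3% of 67 on the centrifuge and 35.5% of 124 on the ground. The shares at least 2-fold lower, with 0 of 4 members each, were 1.38%, 28.4% and 5.65%. The median difference of the family was 4.86, 3.37 and 3.98 on the log2 scale under the 3 exposures, floor values included, and that of all miRNAs compared was 1.02, 0.99 and 0.72.

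In the limma fit 4 of 4 members were called higher in the mutant at an adjusted p under 0.05, beside 28.8% of 125 miRNAs called higher and 1.6% called lower. The fitted differences were 3.12 (SE 0.51, limma adjusted p = 7.2e-07) for miR-58-3p, 3.47 (SE 0.49, limma adjusted p = 1.76e-08) for miR-80-3p, 4.66 (SE 0.52, limma adjusted p = 3.47e-11) for miR-81-3p and 4.94 (SE 0.49, limma adjusted p = 4.5e-13) for miR-82-3p. These estimates depend on the floor, to which miR-58-3p and miR-80-3p were set on 3 N2 arrays and miR-82-3p on 2; at a floor of 100 the limma adjusted p was 0.461 for miR-58-3p and 0.180 for miR-81-3p. miR-58-3p and miR-80-3p passed the filter on low values through the mutant arrays alone. miR-82-3p was above the floor on 1 N2 array, too few to pass without the mutant arrays. A strain difference was thus built into the selection of these members, and the count of 4 supports nothing by itself. Without the filter, miR-80-3p and miR-82-3p (limma adjusted p = 0.0104 each) passed and miR-58-3p (0.135) and miR-81-3p (0.114) did not. The small p-values rest on pooling, with 58.7 prior degrees of freedom beside 2 residual ones. Without moderation, the limma adjusted p was 0.270 for miR-58-3p, 0.0489 for miR-80-3p, 0.256 for miR-81-3p and 0.0489 for miR-82-3p.

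The brightness of the strains' arrays moves with this result. On the 75th percentile scale the fitted differences were 2.56 for miR-58-3p, 2.59 for miR-80-3p, 1.83 for miR-81-3p and 2.67 for miR-82-3p, and all 4 were called. That percentile of the worm probes was 5 to 13.25 on the N2 arrays, under the control limit of each. On the mutant arrays it was 116.25 to 297.375. This setting therefore scales N2 by values that are not above the control spots. When each array was scaled by its spots named Hy3, the differences were 2.78 (limma adjusted p = 0.0793) for miR-58-3p, 3.14 (0.0247) for miR-80-3p, 4.14 (0.0165) for miR-81-3p and 4.51 (0.0165) for miR-82-3p. With normexp correction of the background and its offset of 50, miR-58-3p at 0.46 (limma adjusted p = 0.372) and miR-80-3p at 0.70 (0.178) were no longer called. miR-81-3p at 3.72 and miR-82-3p at 2.57 were. The offset lifts dim spots, and its part in the normexp results was not tested apart from the correction. The calls over all miRNAs changed as well. On the 75th percentile scale limma called 18 of 113 higher in the mutant and 22 lower. On the Hy3 scale it called 11 of 83 higher and 1 lower. With normexp it called 8 of 125 higher and 85 lower. How much of the family's difference belongs to the strain cannot be told apart from the raw table.

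**Figure D4:**
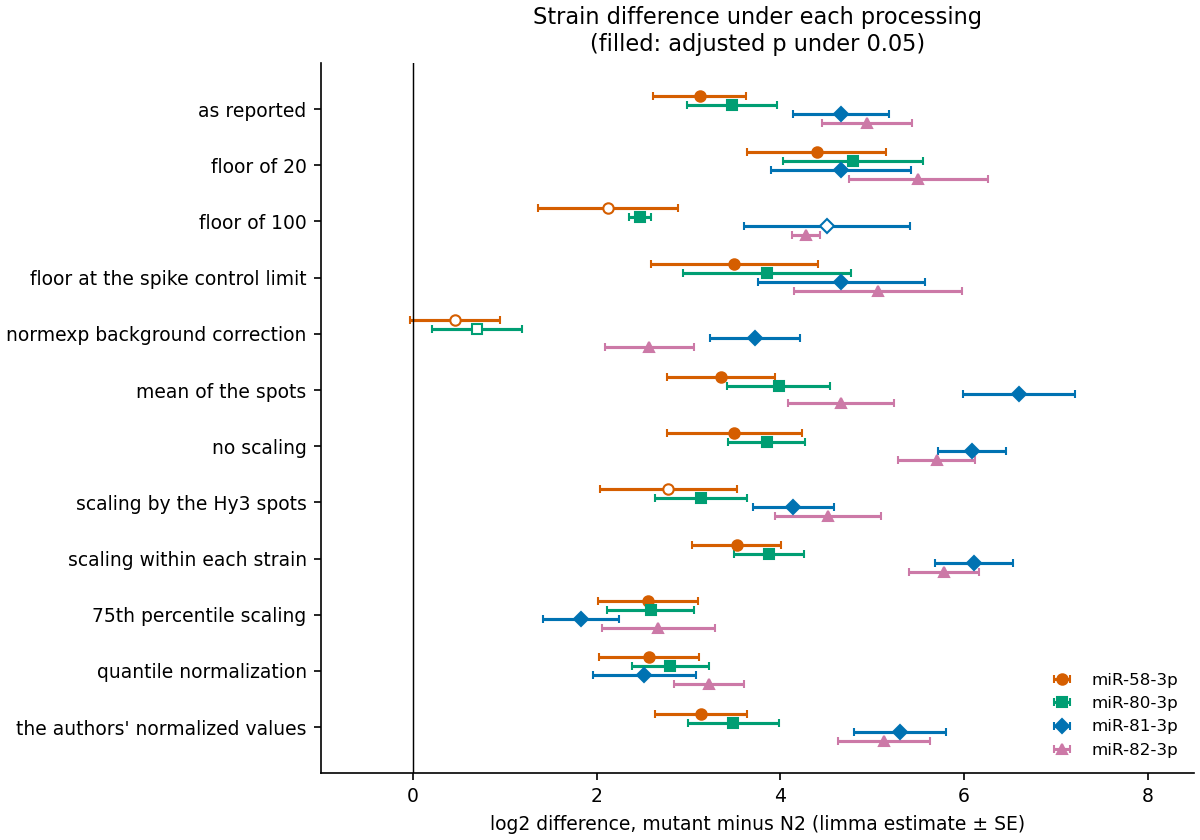
Fitted difference of mutant minus N2 on the log2 scale for each member under each processing drawn, with filled points for a limma adjusted p under 0.05. The estimates drawn lie above 0 for every member. Not drawn are, among others, the unfiltered fit, the unmoderated fit and the series value table taken with the samples its columns name, where the estimates are below 0.

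Over the 3 mutant arrays, the miRNA whose scaled pattern was most like that of miR-58-3p was miR-71-5p, among 124 others, at a root mean square difference of 0.12 on the log2 scale. Next were the shared probe of miR-44-3p and miR-45-3p at 0.27 and miR-793 at 0.37. Its own family stood far down this order, with miR-80-3p at rank 66, miR-82-3p at 109 and miR-81-3p at 122. For miR-81-3p the nearest patterns were those of miR-228-5p (0.13), miR-35-3p (0.31) and miR-253-3p (0.31), and miR-82-3p followed at rank 7. miR-82-3p was nearest to miR-56-3p, miR-57-5p and miR-65-5p, each at 0.14. miR-80-3p, which hardly varied after scaling, was nearest to miR-247-3p, miR-47-3p and miR-42-3p at 0.033 to 0.051. Of these neighbours, miR-247-3p was under the control limit on all 3 arrays, miR-42-3p on 2, and miR-793, miR-228-5p, miR-35-3p and miR-253-3p on 1. miR-247-3p, miR-42-3p and miR-253-3p were at the floor on the centrifuge array, so their distances are uncertain. With 3 arrays these are descriptions.

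Other groups of miRNAs were counted by the same rules. In the strain fit, limma called 4 of 7 let-7 family miRNAs, timers of larval cell fates, higher in the mutant, beside 28.8% of all 125. It called 4 of 6 tested miR-35 family miRNAs, which embryos need to survive, 0 of 6 of the miR-51 family and 3 of 5 tested stress, dauer and ageing miRNAs, beside the same share. The filter on low values can build a strain difference into these counts too. In the stress group, miR-71-5p and miR-34-5p read between -8.5 and 6 on the N2 arrays and passed through the mutant arrays alone. The counts support nothing by themselves. The median fitted difference was 1.55, 1.37, -0.01 and 1.27 for these groups, 4.07 for the miR-58 family and 0.57 for all 125. In mutant static flight against ground, medians were 0.46 for the let-7 family, 0.27 for the miR-35 family, 0.45 for the miR-51 family and 0.47 for the stress group, beside -0.27 for the miR-58 family. In centrifuge flight against ground they were -0.06, -0.49, -0.46 and -0.03 for these groups, beside -0.71 for the miR-58 family and -0.40 for all miRNAs compared.

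Among relatives of the family, the arrays held a probe for miR-80-5p, the other strand of the mir-80 hairpin, and for miR-1834-3p. miR-80-5p read 80, 32 and 73.5 on the static, centrifuge and ground arrays of the mutant and -94.5, 4.5 and -13.5 in N2. miR-1834-3p read 41, 11 and 44.5 in the mutant and -5, -5 and -17.5 in N2. Neither exceeded the control limit on any of the 6 arrays, so no change can be given for them.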

How the data were processed

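Per the file headers, the deposited raw tables give each spot's foreground intensity and its intensity after subtraction of local background. The authors' table per probe gives the median intensity of the 4 spots, which was matched for 2314 of 2314 probes (tolerance 0.01). Of the deposited value columns, 12 were not used. Probe names follow the newer raw table. The columns of the series value table each equal the array of another sample, so the raw tables' sample names were used.

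Spot medians were multiplied to a common median over the 8 worm probes at 50 or more on all 6 arrays, floored at 50 and put on the log2 scale. A value at the floor on 1 side gives "at least N-fold". Whether a probe exceeded the control limit was judged on unscaled intensity. The filter at 50, the choice of miRNAs compared and the ranks of differences used scaled intensity. The 125 miRNAs at 50 or more on at least 2 arrays were fitted with limma 3.58.1 in R 4.3.3 (strain plus exposure, two-sided, Benjamini-Hochberg adjustment, threshold 0.05). As no sample was repeated, the p-values reflect only how these arrays spread. For the strain comparison it was tested on simulated data of 125 miRNAs and recovered 98.5% of changes of 2 on the log2 scale at a noise SD of 0.5, which is below the SD over exposures of miR-58-3p (1.45) and miR-81-3p (1.82). The members, lists and the rule for named miRNAs (the members, their other strands and relatives, and the 3 nearest patterns) were chosen with earlier results of these data known. Alternatives in scaling, background, floor, filter, spot summary and arrays left out were run.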

Additional observations from a re-analysis of the deposited data

Results flagged for a closer look

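miR-81-3p differed between centrifuge flight and ground by -2.53 on the log2 scale in the mutant and by 0.62 in N2, so the 2 strains lay on opposite sides of 0. Between static and centrifuge flight it differed by 0.35 in the mutant and by -2.82 in N2, again in opposite directions. Each value compares 1 array with 1, and the difference between the strains was not tested. The spots of miR-81-3p in N2 ranged from below 0 to above the control limit on each of the 3 N2 arrays.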

How the results depend on the processing

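The strain call held for 4 members under 10 of the settings that kept all 6 arrays, and for 3 with the Hy3 spots as scale. Over all miRNAs, the number called higher under the 10 ran from 15 of 125 with the control limit as floor to 62 of 131 with scaling within strains. It was 11 of 83 on the Hy3 scale. Among the 10 is scaling without the members, which repeats the main fit by construction. The count fell to 2 with normexp, with a floor of 100, without the detection filter and without moderation. Over all miRNAs, 8 of 125, 4 of 125, 13 of 154 and 7 of 125 were called higher there, in that order. The count fell to 0 with the series value table taken as labelled, where the differences turned to -0.38 for miR-58-3p, -0.90 for miR-80-3p, -2.62 for miR-81-3p and -1.40 for miR-82-3p. Leaving out 1 array gave 3 to 4 calls, beside 18 to 24 of 125 miRNAs called higher. miR-58-3p was the member lost, without either centrifuge array. Under normexp the ground difference of miR-58-3p between strains turned to -0.86, and the count of strain differences of at least 2-fold fell from 12 to 7 of 12. On the 75th percentile scale the fitted miR-81-3p difference fell to 1.83. The cause was not tested.

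With an array left out, the fitted miR-81-3p difference for static flight against ground ranged from -2.99 to -1.39. The count of members called in that comparison rose from 0 to 1 with the authors' normalized values, beside 1 higher and 1 lower of 107 miRNAs. It was 0 under every array left out for the other exposure comparisons. Within a strain 9 differences reached 2-fold, against 5 with normexp and 14 with the Hy3 scale. Of the 18 pair changes 10 reached 2-fold, against 6 with the mean of the spots. Shares over all miRNAs were not computed for the 2-fold counts under these other settings, so the counts describe the members only.

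Directions turned mostly for small differences. For static flight against ground, miR-80-3p turned to -0.59 with spot means, -0.24 unscaled, -0.17 scaled within strains and -0.29 on the Hy3 scale, and ranged from -0.060 to 0.27 with an array left out. For centrifuge flight against ground, miR-80-3p turned to 0.083 on the 75th percentile scale, 0.37 with the authors' values, 0.63 unscaled, 0.39 within strains, 0.63 on the Hy3 scale and 0.34 with the control limit as floor. With an array left out it ranged from -0.29 to 0.053, miR-58-3p from -0.21 to 2.18 and miR-81-3p from -2.53 to 0.62; the turn came without the mutant ground array for miR-58-3p and without the mutant centrifuge array for the others.

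For static against centrifuge flight, miR-58-3p turned to -0.015 on the 75th percentile scale, -0.018 with the authors' values, -0.67 unscaled, -0.37 within strains and -0.72 on the Hy3 scale. miR-80-3p turned to -0.21 with the authors' values, -0.86 unscaled, -0.56 within strains, -0.92 on the Hy3 scale and -0.091 with the control limit as floor. miR-82-3p turned to -0.030, -0.23, -0.88, -0.57 and -0.93 under the settings named for miR-58-3p, in that order, to -0.25 with a floor of 20 and to -0.10 with the control limit as floor. Spot means turned miR-81-3p to 0.48. With an array left out, miR-58-3p ranged from -0.49 to 1.34, miR-82-3p from -0.12 to 0.55 and miR-81-3p from -2.81 to 0.35.

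In single-array differences, miR-82-3p in mutant centrifuge flight against ground turned to 0.30 unscaled and 0.31 on the Hy3 scale, and miR-81-3p in N2 turned to at least 0.59 with spot means for static flight against ground and against the centrifuge. The N2 differences of miR-82-3p against ground shrank under normexp, to -0.05 in static and -0.20 in centrifuge flight. In single sections of the slide, the pair changes in static and centrifuge flight against ground turned to 0.75 and 0.98 for miR-81-3p against miR-82-3p, -0.84 and -1.29 for miR-80-3p against miR-81-3p, -0.76 and -1.16 for miR-58-3p against miR-80-3p, and -0.36 and -0.67 for miR-58-3p against miR-82-3p.

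No paired analysis was possible because each group holds 1 array and all carry the same replicate number, which therefore cannot serve as a block; the exposure term of the fit already sets the strains against each other within an exposure. Requiring detection on all 6 arrays left miR-81-3p alone of the family, so no count was made. Scaling without the members changed nothing because 0 of them are among the 8 scaling probes. The Hy3 scale, the control limit as floor, the value table, the unmoderated fit, the added probes and the slide sections were chosen after seeing the data. N2 signal near the control limit restricts what can be said of the wild type.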
